A study of Mus musculus with 24 samples.

Results

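The dermal papilla (DP) is a small group of mesenchymal cells enclosed by the epithelium of the hair bulb. The libraries described here are 3 from DP cells of Hdac1/Hdac2 double mutant mice at P24 (postnatal day 24) and 3 from the same kind of cells at P28, chosen by their labels out of 24 libraries in the series. The question the comparison addresses is how the transcriptome of a DP in which both deacetylase genes were deleted changed from the early to the middle part of anagen, the growth phase, in the second hair cycle. The double mutants, designated dM1/2, carried Corin-Cre on 1 allele (Cor-cre/+) and floxed alleles of both Hdac1 and Hdac2 on both chromosomes, and Corin-Cre limits the deletion to the DP within the skin. Control mice also carried Cor-cre/+, together with floxed alleles of 1 or both genes in several incomplete combinations, and the labels do not give the combination of each control library. All mice carried a ROSA26 EYFP reporter, by which DP cells of single back skins were sorted, and males were used at both ages. The P24 and P28 controls, 3 libraries each, are used below only to show where the mutants differed.

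DP cells direct the overlying epithelium through secreted Wnt, R-spondin, FGF and BMP signals and answer Sonic hedgehog made by the epithelial matrix. They divide little in a normal follicle. Hdac1 and Hdac2 are class I histone deacetylases that remove acetyl groups from histone tails and other proteins, and they work in corepressor complexes.

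All values are normalized reads, that is, reads on a gene divided by the size factor of its library. The 6 dM1/2 libraries held 37171260 to 49331751 reads on genes and the 6 control libraries 35469841 to 48687886. DP markers were high in every dM1/2 library: the 16 genes of the DP marker list summed to 154490 to 200481 normalized reads at P24 and to 106962 to 130871 at P28, while the 16 markers of matrix and outer root sheath keratinocytes summed to 281 to 341 and to 276 to 419. The Y-linked Ddx3y stood at 969 to 1154 in the 6 dM1/2 libraries and Xist at no more than 2.81. Hdac1 (chromosome 4, 129516104 to 129542713, GRCm38) was counted over the whole gene, and so reads from exons outside the floxed part are included. In dM1/2, Hdac1 stood at 209, 188 and 116 at P24 and at 190.2, 149 and 126 at P28. The P24 controls held 675, 668 and 668, and the P28 controls 214, 529 and 105. Thus the mutants were below the controls at P24 and overlapped them at P28, where the third control was the lowest library. Hdac2 stood at 1091 to 1282 in the mutants and at 925 to 1117 in the controls, so its gene count does not check the labels. Neither gene was called between the ages in dM1/2 (log2 fold change -0.12 ± 0.25 (SE) for Hdac1 and -0.06 ± 0.11 for Hdac2, limma adjusted p = 0.867 and 0.847). Of the 11 histone deacetylase genes tested, 0 were called by limma at an adjusted p below 0.05, 2 had an unadjusted p below 0.05, and edgeR and DESeq2 called 0. The changes furthest from 0 in the list were those of Hdac5 (0.50 on the log2 scale) and Hdac4 (-0.54).

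A gene was tested when its mean over the 6 libraries was at least 10 normalized reads, and it was called when its limma adjusted p, two-sided and adjusted over all tested genes, was below 0.05. Of 14032 genes tested, 375 were called (2.67%). Of these, 237 were higher at P28 (1.69% of the tested genes) and 138 were lower (0.983%). The called genes that rose had a median group mean of 223 normalized reads at P24 and 502 at P28. For the called genes that fell the medians were 925 and 492. Both sets were chosen by the direction of change, so these medians are a description. A change of at least 1 on the log2 scale was reached by 151 of the rises and 84 of the falls, and of at least 2 by 55 and 18. The median log2 fold change of all tested genes was 0.01, and their median absolute change was 0.19. In all 375 called genes the 3 libraries of one age lay outside the range of the other, which was the case for 21.8% of all tested genes.

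The number of calls rested on single libraries. Without the second P28 dM1/2 library 57 genes were called, without the first P24 library 132 and without the third P28 library 143. The second P28 library held the highest P28 value in 131 of the 237 genes that rose and the lowest in 94 of the 138 that fell. The first P24 library held the lowest P24 value in 131 of the rises and the highest in 95 of the falls. In edgeR with TMM, 352 genes were called, and 330 of them were among the 375.

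**Figure D1:**
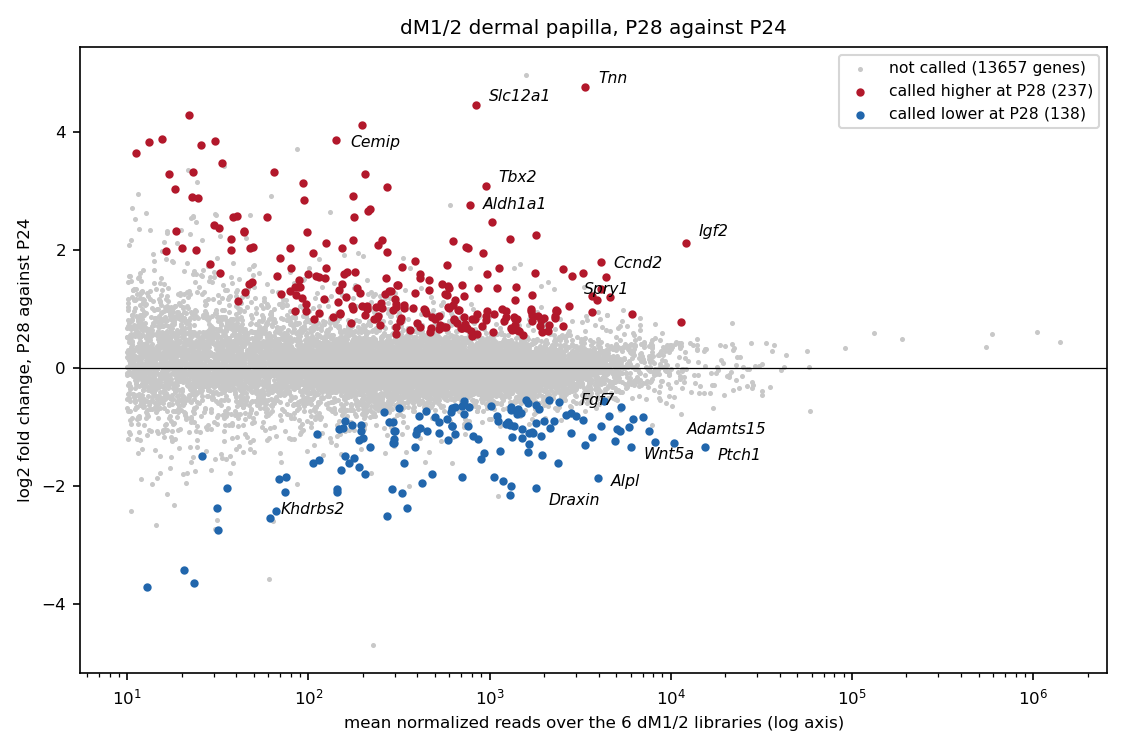
Log2 fold change from P24 to P28 in dM1/2 (y axis) against the mean normalized reads over the 6 dM1/2 libraries (x axis, log scale), 1 point per tested gene. The 237 genes called higher at P28 are red and spread over low and middle levels, the 138 genes called lower are blue, and the 13657 genes not called are grey.

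Part of the DP signature was lower in the P28 mutants. Of 31 signature genes tested, 9 were called lower at P28 and 0 higher, against 0.983% and 1.69% of all tested genes. Their median log2 fold change was -0.44, against 0.01 for all tested genes, and 22 of the 31 had a negative change. Alkaline phosphatase (Alpl), the enzyme by which DP cells are classically stained (chromosome 4, 137741733 to 137796384, GRCm38), stood at 8123, 5366 and 5269 at P24 and at 1499, 1441 and 2216 at P28 (log2 fold change -1.86 ± 0.22, limma adjusted p = 0.0062). The Notch-responsive repressor Hey2 stood at 2370.1, 2017 and 1954 at P24 and at 945, 879 and 949 at P28 (log2 fold change -1.19 ± 0.12, limma adjusted p = 0.00407). The P28 libraries of both genes lay below all P24 libraries. For comparison, Alpl stood at 13129.7, 12426 and 18252 at P24 and at 7553, 1978 and 9669 at P28 in controls. Alpl and Hey2 kept their call when any 1 of the 6 libraries was left out, and 3 of the 9 signature genes were still called without the second P28 library.

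Secreted signals of the DP were among the other falls. Bmp6, a BMP ligand, stood at 2537, 1688 and 1969.6 at P24 and at 869.9, 327 and 459.7 at P28 (log2 fold change -2.0 ± 0.32, limma adjusted p = 0.019). Edn3, the endothelin that acts on melanocytes, stood at 2054, 2597 and 3287 at P24 and at 1231, 912 and 1406 at P28 (log2 fold change -1.16 ± 0.21, limma adjusted p = 0.0264). Fgf7, the keratinocyte growth factor, stood at 3795, 4004 and 3645 at P24 and at 2413, 1955 and 2201 at P28 (log2 fold change -0.80 ± 0.12, limma adjusted p = 0.0153). In each of these 3 genes the lowest P24 library was above the highest P28 library. Bmp6 stood at 4832, 5839 and 6103 at P24 and at 2970.4, 1458 and 7721 at P28 in controls, where the ages overlapped. The SRY-box factor Sox18 stood at 2331, 1641 and 2141 at P24 and at 1034, 822 and 1135 at P28 (log2 fold change -1.03 ± 0.17, limma adjusted p = 0.0202). Fgf10, another FGF of the DP, was not called. It stood at 2820.1, 4917 and 3526 at P24 and at 3909.5, 3257 and 3492 at P28, with overlapping ages (log2 fold change -0.05 ± 0.20, limma adjusted p = 0.942). Corin, the serine protease whose promoter drives the Cre, stood at 4754, 3537 and 3138 at P24 and at 4581, 4009 and 5005 at P28 (log2 fold change 0.27 ± 0.17, adjusted p = 0.493). The remaining signature genes were not called, among them Sox2 (-0.50), Lef1 (-0.14), Vcan (-0.73), Trps1 (-0.37), Tbx18 (-0.61) and Alx4 (-0.64). Most markers of fibroblasts and of pericytes and vascular smooth muscle had changes of the opposite sign. The 4 tested adipocyte markers and 17 of 20 contractile and dermal sheath genes had negative changes (list medians -0.15 and -0.20). Of 11 markers of dermal and other fibroblasts 10 had a positive change (median 0.44), and they summed to 788650 to 1734240 normalized reads at P24 and to 1326770 to 2625720 at P28. By limma and edgeR 0 of the 11 were called, with 3 higher and 1 lower at an unadjusted p below 0.05, and DESeq2 called 1 higher. Of 7 pericyte and vascular smooth muscle markers 6 had a positive change (median 0.48), with sums of 12267 to 14110 and of 13794 to 16914. Of these 7 markers 1 was called higher, against 1.69% of all tested genes. The part of these cell types in the falls was not tested. In bulk samples, fewer cells of a type and less RNA per cell cannot be told apart.

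**Figure D2:**
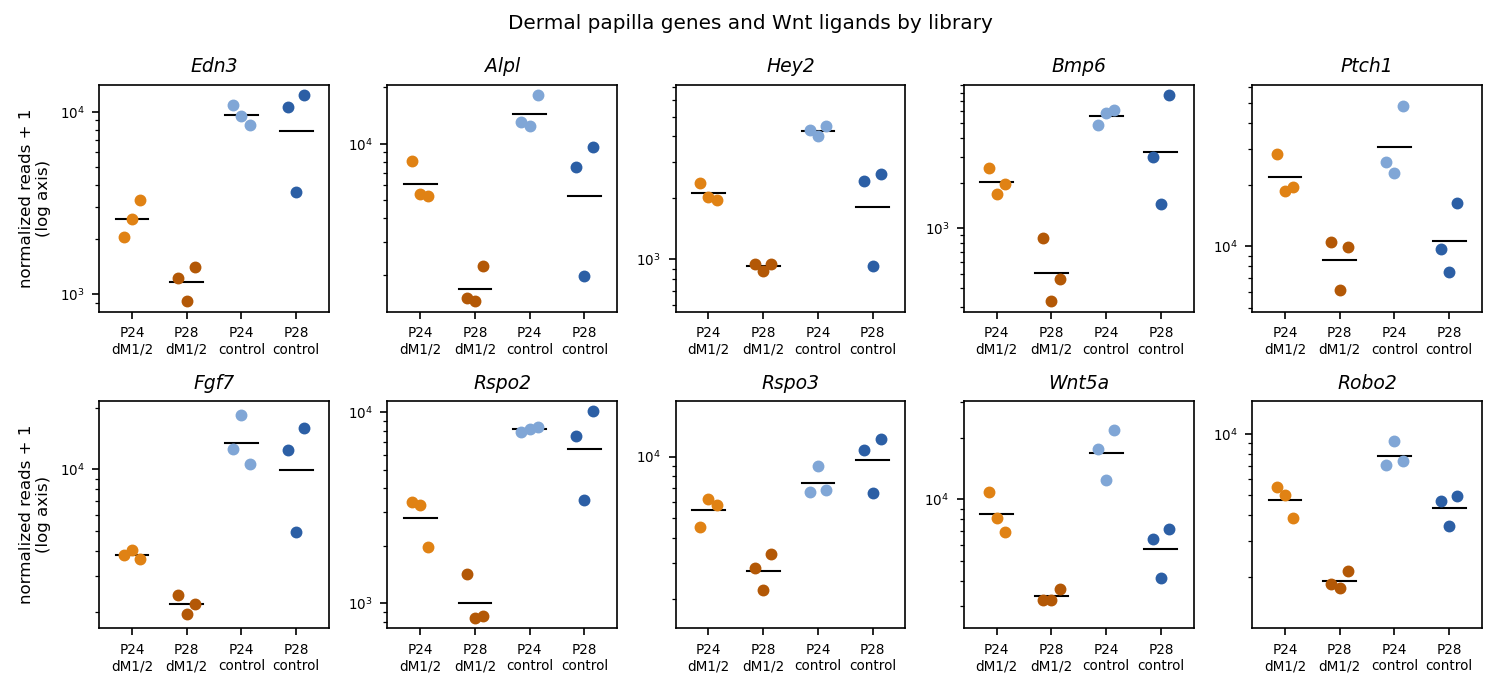
Normalized reads plus 1 (log axis) of 10 genes in each P24 and P28 library of dM1/2 and controls, 3 points per group, with the mean of the log values as a bar. In dM1/2 the P28 libraries lie below the P24 libraries in all 10 genes. In the controls the ages overlap in Edn3, Bmp6, Fgf7, Rspo2 and Rspo3.

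Hedgehog signalling was measured through Ptch1, the receptor that is also a target of the pathway, and 11 further genes of the pathway. Ptch1 stood at 28304, 18726 and 19461 at P24 and at 10443, 6092 and 9906 at P28 (log2 fold change -1.34 ± 0.25, limma adjusted p = 0.031). It was the 1 gene of 12 tested that was called, against 2.67% of all tested genes. Gli1, the transcription factor that reports pathway activity, stood at 3532, 2364 and 2010 at P24 and at 1593, 1220 and 1464 at P28 (log2 fold change -0.85 ± 0.21, limma adjusted p = 0.0702). Its ages did not overlap, but it was not called. Hhip had a log2 change of -0.67, Gli2 of -0.71 and Smo, the signal transducer, of -0.17, and none of them was called. Of 16 Notch genes tested, 2 were called lower and 0 higher, against 0.983% and 1.69% of all tested genes. One was Hey2, given above, and the other was the glycosyltransferase Lfng, which modifies Notch receptors. Lfng stood at 427, 327 and 339.5 at P24 and at 183, 213 and 178 at P28 (log2 fold change -0.92 ± 0.15, limma adjusted p = 0.0211).

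Wnt ligands and R-spondins moved in both directions. R-spondins amplify Wnt signals at the cell surface, and the Wnt5 ligands act mostly without beta-catenin. Of 15 genes tested, 4 were called lower and 2 higher, against 0.983% and 1.69% of all tested genes. Rspo2 stood at 3373, 3283 and 1962 at P24 and at 1415, 834 and 858 at P28 (log2 fold change -1.47 ± 0.26, limma adjusted p = 0.0249). Rspo3 stood at 4536, 6188 and 5764 at P24 and at 2849, 2211 and 3323 at P28 (log2 fold change -0.98 ± 0.18, limma adjusted p = 0.0293). Wnt5a stood at 10855, 8142 and 6918 at P24 and at 3237, 3231 and 3656 at P28 (log2 fold change -1.33 ± 0.17, limma adjusted p = 0.00886). The P28 libraries of all 3 genes lay below the P24 libraries. Rspo3 stood at 6684, 8959 and 6821 at P24 and at 10816, 6638 and 12189 at P28 in controls, where the ages overlapped. Wnt5b, at a lower level, stood at 569, 447 and 554 at P24 and at 293, 294 and 297 at P28 (log2 fold change -0.82 ± 0.13, limma adjusted p = 0.0194). Rspo1 and Rspo4 were not called, with Rspo1 at 4031, 4055 and 4038 and then 3130, 2929 and 3160 (log2 fold change -0.40 ± 0.10, adjusted p = 0.0942). Rspo4 stood at 815, 2663 and 2516 at P24 and at 6097, 4232 and 3683 at P28, and its direction was opposite (log2 fold change 1.37 ± 0.42, limma adjusted p = 0.138). The ligands that rose were Wnt10a and Wnt6, which signal through beta-catenin. Wnt10a stood at 58.5, 40.0 and 48.4 at P24 and at 133, 189.8 and 128 at P28 (log2 fold change 1.60 ± 0.23, limma adjusted p = 0.0151). Wnt6 stood at 709, 626 and 1006 at P24 and at 1322, 1896 and 1435 at P28 (log2 fold change 1.0 ± 0.20, limma adjusted p = 0.0396). Without the second P28 library 0 of the 4 falls kept its call.

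Guidance molecules changed in both directions as well. They are cell surface and secreted proteins first known from growing axons. Of 47 tested semaphorin, ephrin, netrin and slit genes, 4 were called higher and 5 lower, against 1.69% higher and 0.983% lower over all tested genes, with a median log2 fold change of -0.02. The slit receptor Robo2 stood at 5472, 5018 and 3856 at P24 and at 1842, 1760.3 and 2139 at P28 (log2 fold change -1.31 ± 0.16, limma adjusted p = 0.0062). The ephrin receptor Epha7 stood at 3087, 2287 and 1801 at P24 and at 922, 754 and 954 at P28 (log2 fold change -1.42 ± 0.19, limma adjusted p = 0.0117). Epha5 (-2.03), Ephb1 (-0.86) and the ligand Efnb1 (-0.63) also fell. In contrast, the receptor Epha2 rose. It stood at 367, 379 and 460.3 at P24 and at 976, 872 and 827 at P28 (log2 fold change 1.15 ± 0.13, limma adjusted p = 0.00576). Sema5a, a membrane semaphorin, rose from 2332, 2204 and 2148 at P24 to 5189, 8036 and 6510 at P28 (log2 fold change 1.54 ± 0.16, limma adjusted p = 0.00493). Sema7a (1.28) and Sema6d (0.96) rose too. Robo2, Epha2 and Sema5a kept their calls without any 1 library.

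Some genes of contraction and adhesion fell. Of 20 contractile and dermal sheath genes, 2 were called lower and 0 higher, against 0.983% lower over all tested genes, and 17 had a negative change. Tpm1, an actin-binding tropomyosin, stood at 4537, 6002 and 4776 at P24 and at 2352, 1985 and 2491 at P28 (log2 fold change -1.16 ± 0.15, limma adjusted p = 0.00825). Myocd, the coactivator of smooth muscle genes, stood at 786, 778 and 730.1 at P24 and at 389, 439 and 548 at P28 (log2 fold change -0.75 ± 0.14, limma adjusted p = 0.0342). N-cadherin (Cdh2) stood at 391, 718 and 561 at P24 and at 212, 159 and 287 at P28 (log2 fold change -1.34 ± 0.26, limma adjusted p = 0.039), while Cdh8 rose from 125, 196 and 195 to 380, 523 and 452 (log2 fold change 1.41 ± 0.21, limma adjusted p = 0.0153). The TGF-beta receptor Tgfbr1 stood at 4247, 4738 and 3753 at P24 and at 2318, 1895 and 2749 at P28 (log2 fold change -0.88 ± 0.16, limma adjusted p = 0.0275). Among the abundant genes that fell, the matrix protease Adamts15 dropped from 18009, 16161 and 10583 to 6217, 5985 and 5952 (log2 fold change -1.27 ± 0.20, limma adjusted p = 0.0186). Gpc3, a cell surface heparan sulfate proteoglycan, stood at 9944, 7848 and 9078 and then at 4855, 5401 and 4885 (-0.82 ± 0.14, limma adjusted p = 0.0202).

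The largest falls by fold change were genes of mixed function. Grin3a, an NMDA receptor subunit, stood at 2670, 1927 and 1743 at P24 and at 623, 312 and 514 at P28 (log2 fold change -2.16 ± 0.26, limma adjusted p = 0.0062). Draxin, a secreted guidance cue that also binds a Wnt coreceptor, stood at 4286, 2111 and 2408 at P24 and at 599, 640.2 and 829 at P28 (log2 fold change -2.03 ± 0.25, limma adjusted p = 0.00741). The glutamate transporter Slc1a1 stood at 824, 609.7 and 589 at P24 and at 151, 134 and 251 at P28 (log2 fold change -1.95 ± 0.24, limma adjusted p = 0.00741). The synaptic vesicle protein Synpr stood at 158, 266 and 276 at P24 and at 56.7, 54.0 and 51.4 at P28 (log2 fold change -2.05 ± 0.24, limma adjusted p = 0.00576). In all 4 of them the ages did not overlap. Khdrbs2 (-2.55), Tenm1 (-2.42), Msantd1 (-2.38), Tmem215 (-2.37), Apela (-2.11), Sorcs3 (-2.11), Egfl6 (-2.11), Galnt9 (-2.05) and the potassium channel Kcnd2 (-1.84) were further large falls on the log2 scale. The melanocortin receptor Mc5r stood at 2113, 1919 and 1504 at P24 and at 872, 774 and 784 at P28 (log2 fold change -1.17 ± 0.14, limma adjusted p = 0.00687).

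Proliferation genes were expressed at both ages in dM1/2, and few of them were called by limma. A negative change was seen in 36 of 40 mitosis, 32 of 35 DNA replication and 26 of 26 histone genes. Of 40 mitosis and kinetochore genes, 2 were called lower and 0 higher, against 0.983% lower over all tested genes, with a median log2 fold change of -0.42 and 20 lower at an unadjusted p below 0.05. Mki67, the antigen of dividing cells, stood at 3643, 3207 and 3204 at P24 and at 2022, 1668 and 2155 at P28 (log2 fold change -0.79 ± 0.13, limma adjusted p = 0.0207). Prc1, a spindle midzone protein, stood at 779, 646 and 883 at P24 and at 484, 479 and 471 at P28 (log2 fold change -0.67 ± 0.14, limma adjusted p = 0.0396). Mki67 stood at 850.4, 560.3 and 1864 at P24 and at 271, 274 and 198 at P28 in controls. Both genes stayed above 400 normalized reads in P28 dM1/2. Of 35 DNA replication genes 0 were called in either direction by limma or edgeR (median -0.35, 14 lower at an unadjusted p below 0.05), while DESeq2 called 9 of them and 12 of the mitosis genes lower. Of 26 histone genes 1, Hist1h1d, was called lower (-0.91, median of the list -0.51), and 12 were lower at an unadjusted p below 0.05. DESeq2 called 6 of the histone genes lower. Of 26 genes in the list of cyclins, kinases and inhibitors, 1 was called higher and 2 lower. Over all tested genes the shares were 1.69% higher and 0.983% lower. The gene called higher was Ccnd2, a D-type cyclin that drives entry into the cell cycle. It stood at 1796, 1750 and 1949 at P24 and at 6697, 7319 and 5322 at P28 (log2 fold change 1.80 ± 0.14, limma adjusted p = 0.00233), and it kept its call under every alternative. Ccnd2 stood at 1695, 1846 and 1052 at P24 and at 1803, 3812 and 1325 at P28 in controls. Ccnd1 stood at 2174, 3042 and 5539.8 at P24 and at 5733, 5435 and 4479 at P28, with overlapping ages (log2 fold change 0.64 ± 0.30, limma adjusted p = 0.323). E2f7, a repressor of E2F targets, and the pocket protein Rbl1 fell by 0.74 and by 0.68 on the log2 scale (limma adjusted p = 0.0499 and 0.047).

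The largest rises reached P28 values that differed widely between genes. Tnn, which encodes the matrix glycoprotein tenascin-W (chromosome 1, 160085029 to 160153580, GRCm38), rose most among the genes with a mean of at least 50. Its libraries read 139, 303 and 246 at P24 and 3776, 10366 and 5444 at P28 (log2 fold change 4.77 ± 0.38, limma adjusted p = 0.00233). The sodium-potassium-chloride transporter Slc12a1 stood at 68.3, 70.1 and 61.2 at P24 and at 1504, 2519 and 859 at P28 (log2 fold change 4.46 ± 0.33, limma adjusted p = 0.00233). Cemip, which takes part in hyaluronan breakdown, stood at 9.81, 22.9 and 22 at P24 and at 231, 319 and 248 at P28 (log2 fold change 3.87 ± 0.33, limma adjusted p = 0.00267). The lowest P28 library was at least 10 times the highest P24 library in all 3 genes. The T-box repressor Tbx2 stood at 78.9, 262 and 351 at P24 and at 1704, 1918 and 1411 at P28 (log2 fold change 3.10 ± 0.47, limma adjusted p = 0.0159). The adhesion molecule Cntn3 stood at 38.2, 93.3 and 45.0 at P24 and at 370.1, 689 and 401 at P28 (log2 fold change 3.08 ± 0.36, limma adjusted p = 0.00576). Sez6l2 (2.92), Scrt1 (2.85) and Lix1 (2.70) followed on the log2 scale. A second tenascin, Tnc, chosen here after its values were seen, stood at 212, 496 and 207 at P24 and at 956, 1410.2 and 1172 at P28 (log2 fold change 2.06 ± 0.32, limma adjusted p = 0.0177).

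A set of ERK feedback genes rose in dM1/2. These are genes switched on by FGF and other receptor tyrosine kinase signals whose products mostly dampen the same cascade. Of 30 genes in the list of ERK feedback and immediate early genes, 6 were called higher and 0 lower, against 1.69% higher among all tested genes, although the list's median was -0.05. The ETS factor Etv4 stood at 11.6, 16.4 and 14.5 at P24 and at 66.9, 88.7 and 67.0 at P28 (log2 fold change 2.31 ± 0.28, limma adjusted p = 0.00687). Its relative Etv5 stood at 376, 471 and 613 at P24 and at 1351, 1548 and 1429 at P28 (log2 fold change 1.59 ± 0.17, limma adjusted p = 0.00538). The inhibitor Spry1 stood at 1152, 1456 and 1734 at P24 and at 4597, 3852 and 4299.6 at P28 (log2 fold change 1.57 ± 0.16, limma adjusted p = 0.00491). Spry4 stood at 569, 1059.5 and 1094 at P24 and at 3028, 2503 and 2492 at P28 (log2 fold change 1.61 ± 0.24, limma adjusted p = 0.0153). All P28 libraries of these 4 genes lay above all P24 libraries. Spry1 stood at 1154, 1671 and 1176 at P24 and at 6441, 6154 and 9727 at P28 in controls, and it rose there too (limma adjusted p = 0.0243). The phosphatases Dusp4 and Dusp6, which remove phosphate from ERK, rose by 0.98 and 0.90 on the log2 scale (limma adjusted p = 0.0151 and 0.0453). Spry2 was not called, at 1556, 1875 and 2204 and then 2223, 1551 and 1922 (0.01 ± 0.17, limma adjusted p = 0.98). The immediate early genes Fos (-0.02), Jun (-0.34), Egr1 (-0.34) and Atf3 (0.44) were not called either. Without the second P28 library 3 of the 6 kept their call, and in DESeq2 8 genes of the list were called higher.

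**Figure D3:**
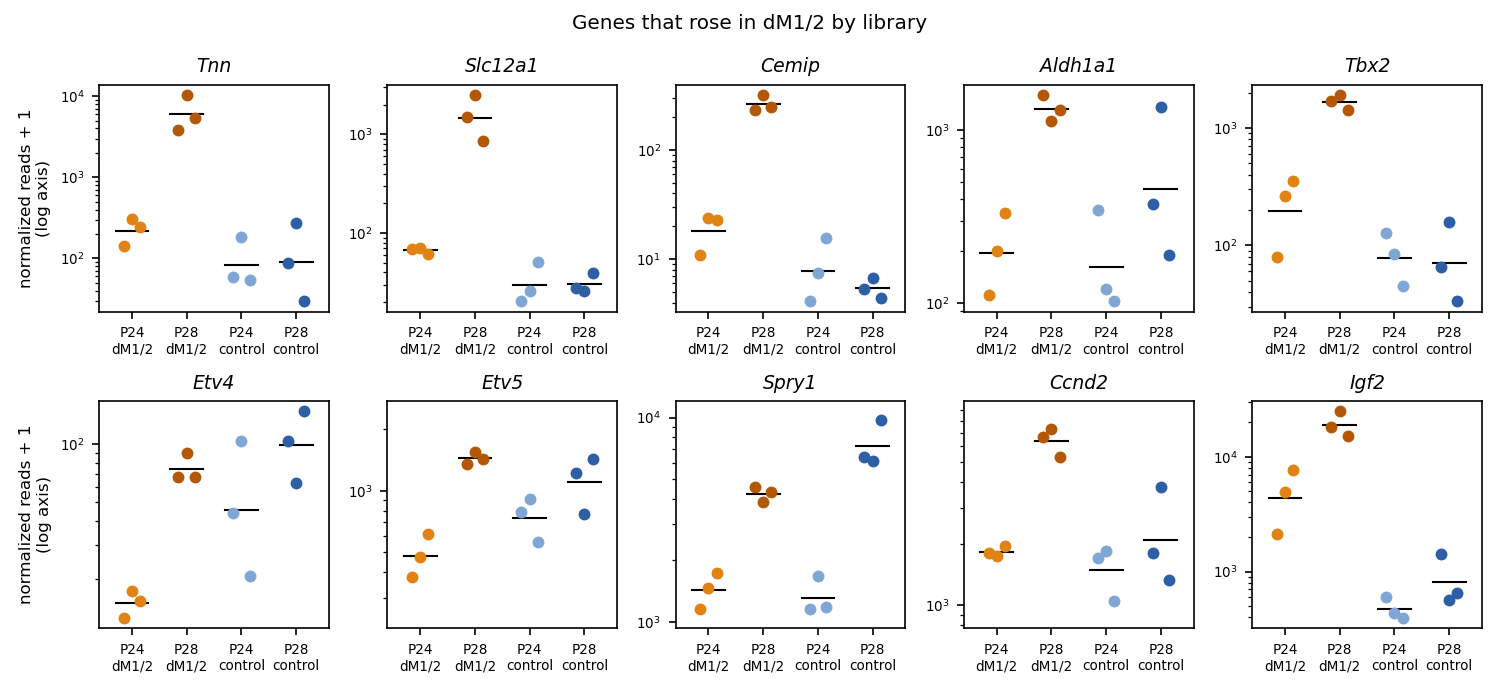
Normalized reads plus 1 (log axis) of 10 genes in each P24 and P28 library of dM1/2 and controls, 3 points per group, with the mean of the log values as a bar. In dM1/2 the P28 libraries lie above the P24 libraries in all 10 genes, and no control library exceeds 273 normalized reads in Tnn, Slc12a1, Cemip or Tbx2.

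Several growth factor ligands rose as well. Of 23 tested FGF, HGF, IGF, PDGF, VEGF and neurotrophin ligands, 5 were called higher and 1, Fgf7, lower, against 1.69% higher and 0.983% lower over all tested genes. Igf2, an imprinted fetal growth factor, was by far the most abundant, with 2129, 4970 and 7679 at P24 and 18084, 24877 and 15229.6 at P28 (log2 fold change 2.13 ± 0.41, limma adjusted p = 0.0363). Igf1 stood at 1772, 1764 and 1845 at P24 and at 4181, 3660 and 3335 at P28 (log2 fold change 1.05 ± 0.12, limma adjusted p = 0.00562). Figf, which encodes VEGF-D, stood at 81.4, 67.0 and 84.2 at P24 and at 182, 345 and 227 at P28 (log2 fold change 1.64 ± 0.24, limma adjusted p = 0.0153). Pdgfc stood at 143, 168 and 161 at P24 and at 288, 431 and 309.9 at P28 (log2 fold change 1.10 ± 0.18, limma adjusted p = 0.0196). Gdnf, a ligand of the RET receptor complex, stood at 131, 136 and 141 at P24 and at 278, 232 and 348 at P28 (log2 fold change 1.05 ± 0.17, limma adjusted p = 0.0202). Igf2 stood at 595, 436 and 393 at P24 and at 1435, 567 and 647 at P28 in controls. The spread within an age of dM1/2 was largest in Igf2, whose P24 libraries ranged from 2129 to 7679, and it was not called by edgeR. Without the second P28 library 1 of the 5 kept its call. Dlk1, an imprinted Notch-like membrane protein, rose as well, from 136, 150 and 209 to 391, 911 and 542 (log2 fold change 1.83 ± 0.30, limma adjusted p = 0.0195). Of 25 imprinted genes tested, Igf2 and Dlk1 were the 2 called, and both were higher, against 1.69% higher over all tested genes.

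Some Wnt feedback genes and secreted inhibitors rose. Axin2, the standard reporter of beta-catenin signalling, stood at 979, 1423 and 1360.5 at P24 and at 2463, 2059 and 1996 at P28 (log2 fold change 0.80 ± 0.16, limma adjusted p = 0.0414). Apcdd1, a membrane-bound inhibitor, stood at 3693, 4502 and 4557 at P24 and at 8199, 7424 and 8487 at P28 (log2 fold change 0.92 ± 0.13, limma adjusted p = 0.0151). Nkd1, another feedback inhibitor, stood at 1408, 1581 and 1836 at P24 and at 2942, 2727 and 2318 at P28 (log2 fold change 0.73 ± 0.14, limma adjusted p = 0.0362). These were the 3 genes called higher among 19 Wnt targets tested, with Fgf7 the 1 called lower, against 1.69% higher and 0.983% lower over all tested genes, and 0 of the 3 kept its call without the second P28 library. The secreted inhibitor Dkk2 rose more, from 518, 471 and 369.6 at P24 to 1429, 2910.5 and 2112 at P28 (log2 fold change 2.20 ± 0.25, limma adjusted p = 0.00538), and it kept its call under every alternative. Of 13 secreted inhibitors, 2 were called higher, Dkk2 and Apcdd1, and 1, Draxin, lower, against 1.69% and 0.983% of all tested genes. Lef1, the nuclear partner of beta-catenin, stayed at 3667, 4372 and 4020 and then 4576, 3315 and 3180 (-0.14 ± 0.16, limma adjusted p = 0.727).

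Among the BMP ligands, Bmp2 rose where Bmp6 fell. Of 25 BMP genes tested, 2 were called higher and 1 lower, against 1.69% and 0.983% of all tested genes. Bmp2 stood at 759, 1309 and 1683 at P24 and at 4089.9, 3834 and 3493 at P28 (log2 fold change 1.68 ± 0.25, limma adjusted p = 0.0162). Msx1, a homeobox target of BMP signals, stood at 135, 206 and 308 at P24 and at 603, 772 and 456 at P28 (log2 fold change 1.54 ± 0.30, limma adjusted p = 0.0362). The general BMP targets Id1 (0.10), Id2 (-0.72) and Id3 (-0.21) were not called. Inhbb, the subunit of activin B, stood at 113, 169 and 183 at P24 and at 528, 572 and 419 at P28 (log2 fold change 1.72 ± 0.21, limma adjusted p = 0.00687). Tgfb1 and Tgfb2 rose by 0.84 and 0.92 on the log2 scale (limma adjusted p = 0.0195 and 0.041), while their receptor Tgfbr1 fell. Of 20 TGF-beta and activin genes, 3 were called higher and 1 lower, against 1.69% higher and 0.983% lower over all tested genes. Without the first P24, the second P28 or the third P28 library 1 of the 3 kept its call.

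Among matrix genes, calls were few and went both ways. Of 43 collagen chain genes, Col9a2 (0.63) was called higher and Col11a1 (-0.85) and Col25a1 (-1.12) lower, with a median of 0.02. Over all tested genes 1.69% were called higher and 0.983% lower. The laminin chain Lama3, a basement membrane component, stood at 347, 668 and 597 at P24 and at 1263, 1921 and 1957 at P28 (log2 fold change 1.70 ± 0.26, limma adjusted p = 0.0172). Matrix Gla protein (Mgp), which holds back calcification, stood at 141, 146 and 206 at P24 and at 334, 416 and 465 at P28 (log2 fold change 1.30 ± 0.19, limma adjusted p = 0.0153). The gelatinase Mmp2 stood at 8428, 7313 and 9345 at P24 and at 12145, 15331 and 15644 at P28 (log2 fold change 0.78 ± 0.16, limma adjusted p = 0.047). Col1a1, the most abundant transcript of several libraries, stood at 1112490, 434972 and 959483 and then at 811262, 1143710 and 1805450 (0.62 ± 0.84, limma adjusted p = 0.778), with overlapping ages.

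Retinoid genes that make retinoic acid or its precursors were among the rises. Of 16 tested, 4 were called higher and 1 lower, against 1.69% higher and 0.983% lower over all tested genes, with a list median of 0.13. Without the second or the third P28 library 1 of the 4 kept its call, and 2 did without the first or the second P24 library. Aldh1a1, which makes retinoic acid, stood at 110.5, 199.6 and 333 at P24 and at 1602, 1136 and 1307 at P28 (log2 fold change 2.77 ± 0.34, limma adjusted p = 0.00741). Aldh1a7, a close copy of it with which it may share reads, stood at 16.4, 635 and 795 and then at 1604, 1183 and 1545, without a call (limma adjusted p = 0.299). Dhrs3 and Rdh10, which interconvert retinol and retinaldehyde, rose by 1.01 and 0.83 on the log2 scale (limma adjusted p = 0.0272 and 0.0371). Crabp2, the retinoic acid carrier, fell by 0.58 (limma adjusted p = 0.049), and no library could be left out without losing that call.

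Some clock-linked genes rose. In the core clock, Clock and Bmal1 (Arntl) drive E-box genes, whose products Per and Cry repress the drive. Of 19 clock genes tested, 4 were called higher and 0 lower, against 1.69% higher over all tested genes, with a median of 0.46. Dbp, an output factor, stood at 270.1, 235 and 275 at P24 and at 531, 901 and 580.1 at P28 (log2 fold change 1.33 ± 0.20, limma adjusted p = 0.0159). The repressor Nr1d1 stood at 1606, 1232 and 1078 at P24 and at 2308, 2175 and 2643 at P28 (log2 fold change 0.88 ± 0.16, limma adjusted p = 0.0285). Ciart stood at 45.1, 32.8 and 45.0 at P24 and at 73.8, 126 and 102 at P28 (log2 fold change 1.26 ± 0.26, limma adjusted p = 0.0454). The core genes were not called, with Arntl at 0.46, Per1 at 0.08, Per2 at 0.04, Per3 at 0.11 and Cry1 at 0.10 on the log2 scale. The hour of day at which skins were taken is not given in the sources used here. One of the 4 calls was left without the second or the third P28 library, and also without the first or the second P24 library.

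The E-box CACGTG, which reads the same on both strands, was looked for in the 250 bases before the annotated starts of the clock genes, to show a gene that rose beside a gene that did not. RefSeq promoters (GRCm38.p6) were at hand for 16 of the 19 genes, and 5 of these genes held it in at least 1 promoter. Counted by promoter and not by gene, 6.02% of 32851 promoters held it, so the 2 shares are not alike. The windows around it are printed for Ciart (chr3:95882279-95882404, minus strand), which rose, and Per1 (chr11:69098723-69098848, plus strand), which did not pass the test. Capitals mark CACGTG, 2 times in Ciart and 1 time in Per1. Dbp and Nr1d1 held no CACGTG in this window.
Ciart: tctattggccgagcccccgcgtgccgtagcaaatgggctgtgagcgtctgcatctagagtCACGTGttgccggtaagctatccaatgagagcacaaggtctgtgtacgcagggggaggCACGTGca
Per1: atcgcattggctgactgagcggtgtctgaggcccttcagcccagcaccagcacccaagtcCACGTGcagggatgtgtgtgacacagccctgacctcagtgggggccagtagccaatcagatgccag

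A few apoptosis genes rose. Of 31 direct p53 targets outside the cell cycle, 3 were called higher and 0 lower, against 1.69% higher over all tested genes. A positive change was seen in 25, with a median of 0.24, against 51.4% of all tested genes. Bbc3, which encodes the killer protein Puma, stood at 220.3, 190.4 and 262 at P24 and at 432, 430.2 and 497 at P28 (log2 fold change 1.02 ± 0.15, limma adjusted p = 0.0158). Zmat3, an RNA-binding p53 target, stood at 1791, 1887 and 2080.5 at P24 and at 3456, 3022 and 2986 at P28 (log2 fold change 0.72 ± 0.12, limma adjusted p = 0.0196). Eda2r, a death receptor of the TNF family, rose by 0.99 (limma adjusted p = 0.0342). Of 14 Bcl2 family genes, Bbc3, Bid (0.94) and Bmf (0.68), all of which promote death, were the 3 called higher. The Bcl2 list held 8 positive and 6 negative changes, with a median of 0.09, and 1.69% of all tested genes were called higher. Bax (0.51), Mdm2 (0.13), Trp53 itself (0.34) and Cdkn2a (0.45) were not called. The CDK inhibitor Cdkn1a stood at 1291, 849 and 1632 at P24 and at 1796, 2509 and 2162 at P28, and although the ages did not overlap it was not called (log2 fold change 0.81 ± 0.23, limma adjusted p = 0.117). No call among the p53 targets and the Bcl2 family was kept without the second P28 library, and no higher call among the p53 targets without the first P24 or the third P28 library.

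Some genes of neurons and ion channels were called. Of 20 tested genes that the repressor REST holds down outside the nervous system, Scn3b (1.24) and Unc13a (0.64) were called higher and 0 lower. Over all tested genes 1.69% were called higher and 0.983% lower. The REST list had a median of 0.45 and a positive change in 15, with 10 higher at an unadjusted p below 0.05. By edgeR 3 of its genes were called higher, and by DESeq2 7. The potassium channel Kcnc1 rose from 29.1, 29.7 and 32.8 at P24 to 129.6, 136 and 118 at P28 (log2 fold change 2.03 ± 0.20, limma adjusted p = 0.00407). Of 40 potassium channels it was the 1 called higher and Kcnd2 the 1 called lower. Aldoc, a glycolytic enzyme, and Ndrg1, a hypoxia target, rose by 2.04 and 0.84 on the log2 scale. They were the 2 of 27 glycolysis and hypoxia genes called higher, against 1.69% of all tested genes. Cxcl14, a chemokine of skin, rose by 1.24 (limma adjusted p = 0.0196).

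Some transcripts best known from liver and from granulocytes rose from very low levels. Albumin (Alb) stood at 21.1, 71.2 and 27.7 at P24 and at 212, 449 and 445 at P28 (log2 fold change 3.29 ± 0.46, limma adjusted p = 0.0118). Prtn3, a neutrophil protease, stood at 10.2, 33.1 and 18.9 at P24 and at 291, 602 and 232 at P28 (log2 fold change 4.13 ± 0.46, limma adjusted p = 0.00538). Mup20, a urinary protein, rose by 3.32 and the complement component C6 by 3.48 on the log2 scale. Beside them, and chosen after their values were seen, Lcn2 stood at 1.09, 0.762 and 1.69 and then at 27.7, 51.4 and 49.4, and Camp at 1.82, 9.14 and 1.69 and then at 41.8, 37.7 and 46.2. Other defining transcripts of these cells stayed at or near 0, with Apoa1 at no more than 5.12, Serpina1a at 0, Elane at no more than 2.56 and Mpo at no more than 3.43 in the 6 dM1/2 libraries. The leukocyte marker Ptprc stood at 8.36, 3.43 and 1.69 and then at 14.1, 2.14 and 37.3. In controls, Alb stood at 1.16, 2.01 and 3.18 at P24 and at 114, 14.7 and 131 at P28. Of 8 immune markers tested 0 were called by limma, edgeR or DESeq2, and 1 had an unadjusted p below 0.05. All 8 had a positive change, with a median of 1.14 against 0.01 for all tested genes. The 13 listed genes summed to 177 to 301 at P24 and 294 to 1516 at P28. Flt1, an endothelial receptor, and Mcam, a pericyte marker, were the other called genes of the marker lists besides the DP genes. Flt1 stood at 386, 194 and 184 at P24 and at 677, 647 and 709 at P28 (log2 fold change 1.49 ± 0.26, limma adjusted p = 0.0234). Mcam rose by 0.64 (limma adjusted p = 0.0183). Of 7 endothelial markers 1 was called higher, as was 1 of 7 pericyte markers, against 1.69% higher over all tested genes. Pecam1, an endothelial marker, stood at 26.2, 27.0 and 39.6 and then at 37.1, 20.6 and 120.4. The part of these cell types in the rises was not tested.

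Several groups held no called gene in dM1/2 by limma or by edgeR. They were the cholesterol and fatty acid synthesis genes (0 of 32, median -0.30), the interferon-stimulated and antigen processing genes (0 of 31, median -0.08), the endoplasmic reticulum stress genes (0 of 25, median -0.08) and the cytosolic ribosomal protein genes (0 of 46, median 0.38). At an unadjusted p below 0.05 they held 12, 2, 1 and 3 genes, and DESeq2 called 8, 1, 0 and 0. The 12 cholesterol genes and the 8 called by DESeq2 were lower at P28. The ribosomal protein genes had a positive change in 45 of 46. Proteoglycan and hyaluronan genes held 1 call of 31, Gpc3, against 2.67% of all tested genes.

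The same ages were then compared in the controls, to show where dM1/2 differed. Of 13966 genes tested, 204 were called (1.46%), 101 higher and 103 lower at P28, and without the first P24 control library 0 were called by limma, with 2422 at an unadjusted p below 0.05. The order of the counts in the genotypes depended on the test, since DESeq2 called 1127 genes in dM1/2 and 1494 in controls, and limma over all 24 libraries 96 and 1328. The median absolute log2 fold change of the tested genes was 0.19 in dM1/2 and 0.26 in controls. The controls share no library with dM1/2. Of the 138 falls in dM1/2, 136 were tested in controls and 120 had the same sign there (88.2%), with 14 called lower and 0 higher. The median log2 fold change of the falls was -1.10 in dM1/2 and -1.11 in controls. Of the 237 rises, 205 were tested in controls, 151 had the same sign (73.7%), 23 were called higher and 3 lower, and the medians were 1.23 and 0.57. Over all 13558 genes tested in both, 63.5% had the same sign. The 40 genes called in both genotypes, 37 of them in the same direction, were 10.7% of the dM1/2 calls and 19.6% of the control calls.

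The difference between the genotypes was tested as an interaction in 1 model over the 12 P24 and P28 libraries. Of 14139 genes, 100 were called (0.707%), 64 with the higher change in dM1/2 (0.453%) and 36 with the lower (0.255%). Of the genes called in dM1/2, 19 rises and 5 falls passed it. Slc12a1, which rose 4.46 in dM1/2 on the log2 scale, stood at 19.3, 25.1 and 49.6 at P24 and at 27.0, 25.0 and 38.7 at P28 in controls (difference 4.43 ± 0.56, limma adjusted p = 0.0126). Cntn3 stood at 191, 209 and 257 at P24 and at 109.6, 21.8 and 110.4 at P28 in controls (difference 4.82 ± 0.79, limma adjusted p = 0.031). Cemip stood at 3.10, 6.53 and 14.7 at P24 and at 4.35, 5.76 and 3.41 at P28 in controls (difference 4.40 ± 0.69, limma adjusted p = 0.0298). In these 3 genes no P28 control library exceeded the highest P24 control library. Tnn, the largest rise, differed by 4.67 without passing the test (limma adjusted p = 0.0701). The guidance gene Sema7a rose by 1.28 in dM1/2 and fell by 1.56 in controls (difference 2.84 ± 0.32, limma adjusted p = 0.00919). Epha2 and Wnt10a rose in dM1/2 and had negative changes in controls (difference 2.27 ± 0.41, limma adjusted p = 0.0379 and 2.63 ± 0.47, limma adjusted p = 0.0383). For Lix1 and Sez6l2 the differences were 2.85 and 3.13 (limma adjusted p = 0.0298 and 0.0442). Hs3st5, which modifies heparan sulfate, Nkain3 and the transcription factor Gata3 completed the largest differences in this direction, at 4.36, 3.89 and 3.68.

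In the other direction, several genes had the higher change in controls. Nrg2, a neuregulin ligand of ErbB receptors, stood at 753, 919 and 807 and then at 472, 368 and 413 in dM1/2. In the same interval it stood at 3016, 3178 and 2962 at P24 and at 7630.2, 5004 and 13229.9 at P28 in controls (difference -2.37 ± 0.38, limma adjusted p = 0.0298). Its P28 libraries were thus above its P24 libraries in controls and below them in dM1/2 (limma adjusted p = 0.0961 and 0.0118). The BMP antagonist Nog stood at 931, 927 and 1357 and then at 708, 560 and 647 in dM1/2. Nog stood at 320, 431 and 279 at P24 and at 978, 633 and 1039.9 at P28 in controls (difference -2.08 ± 0.32, limma adjusted p = 0.0298). Dusp4, called higher in both genotypes, rose less in dM1/2, since it stood at 342, 418 and 369 at P24 and at 4006, 4244 and 7035 at P28 in controls (difference -2.73 ± 0.28, limma adjusted p = 0.00919). Celsr1, a planar polarity cadherin, the matrix protein Matn4 and the teneurin Tenm4 differed by -3.26, -3.19 and -2.45. Among R-spondins the difference was not called, being -1.35 for Rspo3 (limma adjusted p = 0.103), -1.13 for Rspo2 (0.407) and -0.74 for Rspo1 (0.086).

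**Figure D4:**
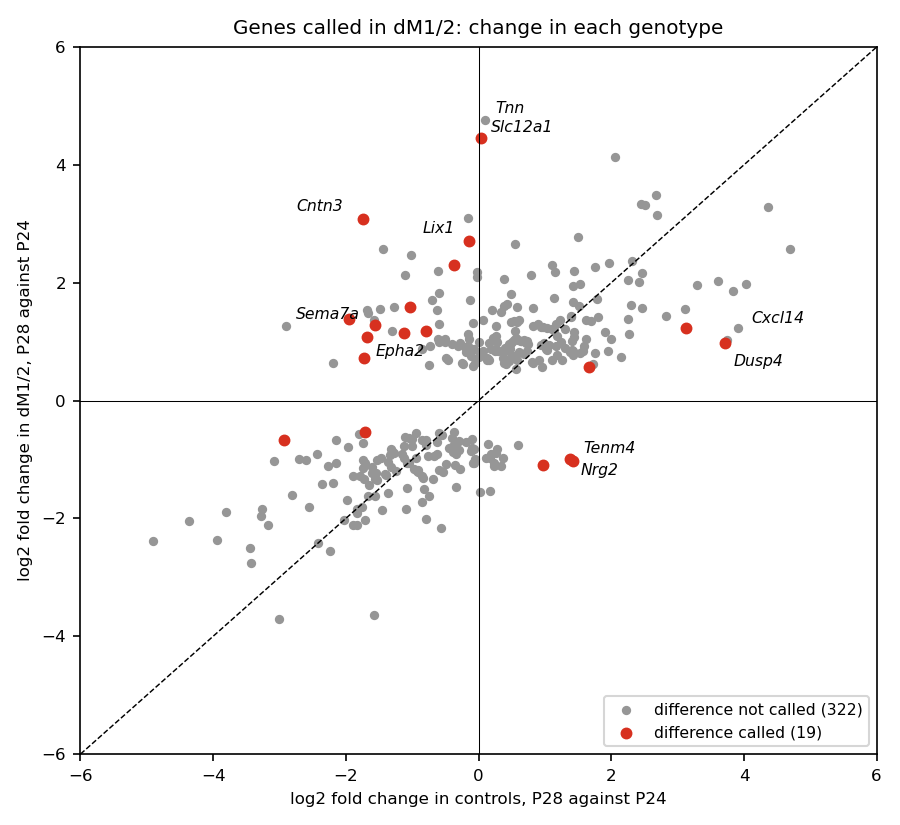
Log2 fold change from P24 to P28 in dM1/2 (y axis) against that in controls (x axis) for the 341 genes called in dM1/2 and tested in controls, with the line of equal change dashed. Most falls lie in the lower left quadrant, and the 19 genes whose difference was called (red) lie mostly away from the line.

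Cell cycle lists had larger median changes in controls than in dM1/2. The mitosis list had a median log2 fold change of -0.42 in dM1/2 and -1.94 in controls, the DNA replication list -0.35 and -1.04, and the histone list -0.51 and -2.17. Top2a, for example, stood at 3835, 2995 and 3973 and then at 2028, 2361 and 2748 in dM1/2, and at 976, 665 and 2387 and then at 270, 183 and 193 in controls. Cdk1 was level in dM1/2 (-0.03) and had a change of -2.49 in controls (limma adjusted p = 0.0727). Gene by gene the difference was called for 1 of 35 replication genes, 0 of 40 mitosis genes and 4 of 26 histone genes by limma, against 0.707% of all tested genes. At an unadjusted p below 0.05 the counts were 19, 36 and 19. The replication gene was the helicase subunit Mcm2 (difference 1.60 ± 0.31, limma adjusted p = 0.0432), which is named after its values were seen. The P28 controls spread more than the other groups, with Col1a1 at 19.8% of the reads in the second library.

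**Figure D5:**
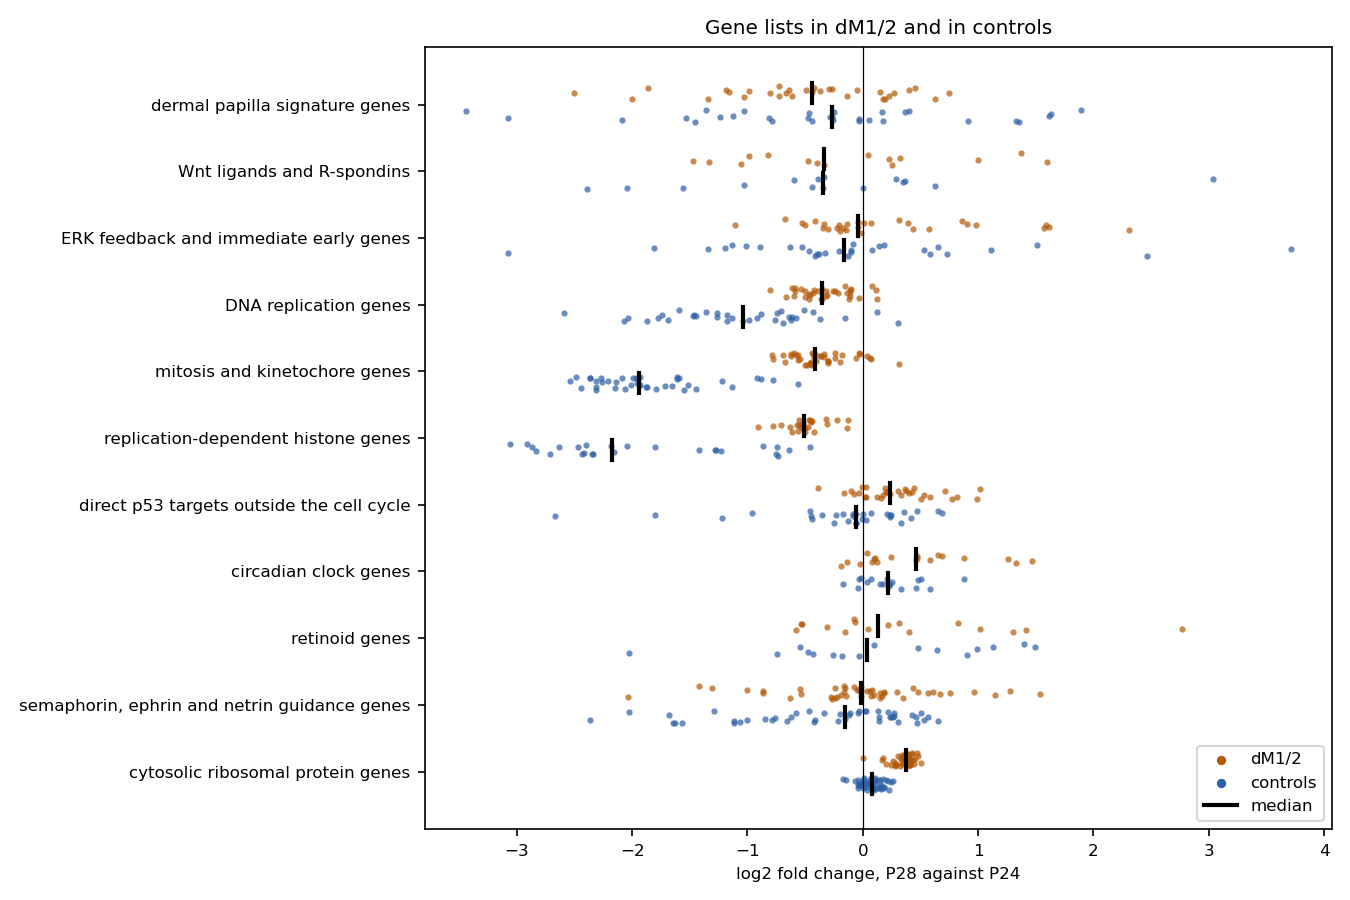
Log2 fold change from P24 to P28 (x axis) of each member of 11 gene lists tested in dM1/2 (orange) and in controls (blue), with the median as a black bar. Mitosis, replication and histone genes lie further below 0 in controls than in dM1/2, and ribosomal protein genes lie just above 0 in dM1/2.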

How the data were processed

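The libraries were made by the authors from dermal papilla cells sorted for the EYFP reporter, after removal of ribosomal RNA, with a directional kit. Reads were trimmed with Trimmomatic, aligned to mm10 with TopHat2 and counted per Ensembl gene (GRCm38.p4) with HTSeq, and the counts were divided by DESeq2 size factors. The deposited values are these normalized reads, a signal per gene for 25755 genes in 24 libraries. Multiplying by the recovered factor gave whole reads in 100% of values, within 0.01 reads, and size factors recomputed over all 24 libraries equalled the deposited ones, so that P24 and P28 values share a scale. Each dM1/2 library held 37171260 to 49331751 reads on genes. A count of 3 reads, taken as the floor, equalled 1.01 to 1.29 normalized reads in dM1/2 and 1.14 to 1.92 in the controls, and such limits cover counting error alone.

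Groups were taken from the labels. The main test was limma 3.58.1 (R 4.3.3, trend) on log2(normalized reads + 1), which understates the change of low genes, and genes whose mean in the fitted libraries was below 10 were left out. P-values were two-sided and adjusted by the Benjamini-Hochberg method over all genes tested, with a threshold of 0.05, and errors of fold changes are standard errors with 3 libraries per group. The labels number the libraries as biological replicates, and the authors state that each mouse skin was dissociated and sorted by itself. Interactions were fitted over 12 libraries. Alternatives were edgeR 4.0.16 and DESeq2 1.42.0 on the recovered reads, other filters, pseudocounts and scalings, a replicate block and leaving out each library. The fits were first tested on simulated data.

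The members, the gene lists and the tests were chosen with earlier results of these data known. The genes named were those with the 15 largest rises and falls among called and separated genes with a mean of at least 50 at the higher age, up to 4 rises and 4 falls of each list, the 6 most abundant called genes and the 6 largest interactions in each direction, and 15 genes fixed by name. Genes given as not called, the remaining called members of short lists, and the liver and granulocyte genes beside the largest rises were chosen after their values were seen. Gene coordinates are from GENCODE (GRCm38) and promoter sequences from RefSeq (GRCm38.p6). A few genes counted in the lists are not reported here by name.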

Additional observations from a re-analysis of the deposited data

Results flagged for a closer look

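The change from P24 to P28 differed between dM1/2 and controls in 100 genes by the interaction test in limma. Among the genes named here, the difference was positive, with the change higher in dM1/2, for Cntn3 (4.82 on the log2 scale), Slc12a1 (4.43), Cemip (4.40), Hs3st5 (4.36), Nkain3 (3.89), Gata3 (3.68), Sez6l2 (3.13), Lix1 (2.85), Sema7a (2.84), Wnt10a (2.63), Epha2 (2.27) and Mcm2 (1.60). It was negative for Nog (-2.08), Nrg2 (-2.37), Tenm4 (-2.45), Dusp4 (-2.73), Matn4 (-3.19) and Celsr1 (-3.26). Over the 64 genes with the higher change in dM1/2 the median change was 0.23 in dM1/2 and -2.09 in controls, with 18 called in dM1/2 and 35 in controls. Over the 36 genes with the lower change the medians were -0.15 and 1.58, with 6 and 23 called. Both sets were chosen by the interaction itself, so these medians are a description. Without the second P28 dM1/2 library 8 differences were called, and without the second P28 control 167.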

How the results depend on the processing

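The 375 calls in dM1/2 ranged from 57 to 446 when 1 library was left out, the 204 calls in controls from 0 to 67 and the 100 interaction calls from 8 to 167. DESeq2 called 1127 genes in dM1/2, 1494 in controls and 595 interactions. With an adjusted p below 0.01 in limma the numbers were 67, 3 and 4, and limma over all 24 libraries gave 96 in dM1/2 and 1328 in controls. Requiring a change of at least 1 on the log2 scale left 235 calls in dM1/2. For the interaction, a pseudocount of 10 gave 151 calls and a minimum of 10 normalized reads in every library 66. The cause was not tested. The share of dM1/2 calls higher at P28 was 63.2%, against 55.3% in DESeq2 and 54.5% without the third P28 library. Replicate numbers did not pair the samples, since same-numbered libraries had correlations of 0.09, -0.19 and 0.31 in dM1/2, and the replicate block gave 450 calls in dM1/2, 337 of them shared, 27 in controls and 49 interactions. Of 119 called genes named, 25 kept their call without each library in turn and 13 under every alternative, and 0 changed sign. Of the genes not called, Hdac1 ranged from -0.37 to 0.048 over the libraries left out, being positive without the first P24 library (0.048) and the third P28 library (0.021). Fgf10 ranged from -0.23 to 0.17 and was positive without the second P24 library (0.17) and the second P28 library (0.015).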

Other observations

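Several genes of neuroendocrine or germ cells were higher in P28 dM1/2 without passing the limma test. They were chosen after their values were seen. All but Chga, which was counted in the REST list above, were outside the lists. Chga, a granin of secretory granules, stood at 4.00, 4.19 and 2.37 normalized reads at P24 and at 12.8, 34.7 and 22.1 at P28 (log2 fold change 2.34, limma adjusted p = 0.0614). Ptprn, a granule membrane protein, stood at 5.09, 20.6 and 3.72 and then at 40.5, 66.0 and 48.6 (2.60, limma adjusted p = 0.0539). Sst, which encodes somatostatin, stood at 15.6, 265 and 528 and then at 967, 1176 and 657 (2.78, limma adjusted p = 0.231). The ages did not overlap in these genes. Ddx4, a germ cell helicase, stood at 1.09, 27.0 and 20.6 and then at 122, 261 and 90.7 (3.73, limma adjusted p = 0.0695). The prolactin-releasing hormone receptor Prlhr stood at 4.36, 51.4 and 107 and then at 301, 210 and 118, while it was at 0 in the 6 control libraries of these ages, in which 3 reads would have been 1.14 to 1.92 normalized reads. The first P24 library was the lowest of its age in Sst, Ddx4 and Prlhr.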
